A study of Papio hamadryas with 17 samples.

Results

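The genes described here are enzymes of drug, steroid and aldehyde metabolism, picked by name: the first field of the listed gene name had to begin with UGT1, UGT2, CYP and a digit, GST, SULT, ALDH, AKR1 or FMO and a digit. Of 14466 genes, 32 met this rule, and all 32 had transcripts in the tables of both sexes, which share 10166 genes. They cover 6 of the 8 families: 16 aldehyde dehydrogenases (ALDH), 8 glutathione S-transferases (GST), 3 UDP-glucuronosyltransferases of family 2 (UGT2), 2 sulfotransferases (SULT), 2 aldo-keto reductases of family 1 (AKR1) and 1 flavin-containing monooxygenase (FMO). The set is mostly aldehyde dehydrogenases, and it holds 0 UGT1 and 0 CYP genes, which these tables list under locus names or with a transcript accession first. The 35 relatives listed that way in both tables are taken up after the members.

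Kidney cortex was biopsied under ultrasound in 17 baboons (Papio hamadryas), sedated with ketamine and kept under isoflurane, with buprenorphine given for pain, and mRNA was sequenced with a stranded kit. The 8 females had ages of 15 to 19 and the 9 males of 6 to 13, in a unit the labels leave out. Each animal gave 1 library, none was treated, and females and males alike had lived on low-salt chow. Library names form 1 series in the females and 2 in the males, A with 5 and B with 4 libraries, so sex, age and name series cannot be told apart.

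These families handle small molecules. FMO and CYP enzymes oxidise them, aldehyde dehydrogenases and aldo-keto reductases turn aldehydes into acids or alcohols, and UGT, SULT and GST enzymes attach glucuronic acid, sulfate or glutathione so that the product can be excreted. In kidney much of this work is known from the proximal tubule, the segment that also reabsorbs filtered protein through megalin, encoded by LRP2. UMOD encodes uromodulin, the main protein of the thick ascending limb.

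Values are called signal: the deposited value less its offset of 1, summed over the transcripts of a gene found in both tables. Female 1, female 2 and male 6 held 54348 to 111219 units of the skeletal muscle genes ACTA1 and CKM, against at most 21.9 in the other 14 libraries, and their 10 proximal tubule markers summed to 18.0 to 217. The results below use the 14 others, 6 females and 8 males, of which 5 males were of series A and 3 of series B. All 10 proximal tubule markers and all 6 thick limb markers of the list used were present there. In the 14, summed signal was 259197 to 440508 and mitochondrial transcripts made up 27.6% to 51.0% of it in the females and 22.5% to 36.0% in the males. The smallest step between low values put 1 unit of signal at 3.15 to 18.8 steps, coarsest in female 6. Of 2 liver genes found, ALB and SERPINA1, the sum was 2.16 to 151, and 0 of 7 adrenal cortex genes listed were in both tables.

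LRP2 itself differed between the sexes. Its signal was 7.98 at the lowest, 60.8 at the median and 121 at the highest in the 6 females, and 134, 206 and 294 in the 8 males, so the sexes did not overlap. Proximal tubule markers together summed to 224 to 4316 in females and 3959 to 8674 in males. Thick limb markers summed to 1829 to 11615 and 2884 to 10326, overlapping widely. Most of that sum was UMOD, with medians of 5730 in females and 5248 in males. The other thick limb genes had higher medians in males. In females and males these were 134 and 214 for SLC12A1, 10.9 and 22.5 for CLDN16, and 32.1 and 55.0 for CLDN10. For KCNJ1 they were 84.4 and 113, and for PTGER3 15.1 and 26.0. Collecting duct markers (4 genes) had medians of 196 and 337, with overlap. Distal convoluted tubule markers (3 genes) had medians of 179 in females and 485 in males, and blood markers (3 genes) 58.5 and 209, with overlap in both. The part of these shifts in the sex differences below was not tested. Female 3 stood apart, with the lowest LRP2 of the 14 (7.98) and the highest UMOD (11030). In whole biopsies, fewer cells of a type and less RNA per cell cannot be told apart.

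The members together made up 0.264% to 0.620% of all shared signal, with a median of 0.504% over the 14 libraries. The signal was concentrated: the top 5 genes held a median of 53.2% of it and the top 10 held 74.4%. Ranks here are of read signal, not divided by transcript length, so levels of different genes are not on a per-length scale. ALDH1L1, the cytosolic 10-formyltetrahydrofolate dehydrogenase, ranked first with a median of 273 and a median share of 19.8% of the members' signal. ALDH6A1, which breaks down methylmalonate semialdehyde from valine and thymine, followed at 141. ALDH1A1, which makes retinoic acid, stood at 140.5, but 2 of its 4 transcripts carried equal values in all 17 libraries. Counted once, that pair would leave ALDH1A1 at 73.8 and sixth in rank.

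GSTP1, the pi-class glutathione transferase, came next at 88.3. It was also the steadiest member, moving 1.93-fold between its lowest and highest of the 14 libraries. AKR1A1, an aldehyde reductase that acts on glucuronate, had a median of 83.4, and ALDH4A1, which oxidises the proline breakdown product, one of 82.9. The glutathione transferases GSTK1 of the kappa class and GSTO1 of the omega class had medians of 63.4 and 46.0. Among the conjugating enzymes, the sulfotransferase SULT1C2 reached 59.8, SULT1C4 20.8 and UGT2B15 37.7. FMO1, which oxygenates nitrogen and sulfur in drugs, had a median of 21.5. At the foot of the order were ALDH1L2, GSTCD, UGT2A3 and ALDH3B1, with medians of 2.24, 2.15, 1.64 and 1.10.

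**Figure D1:**
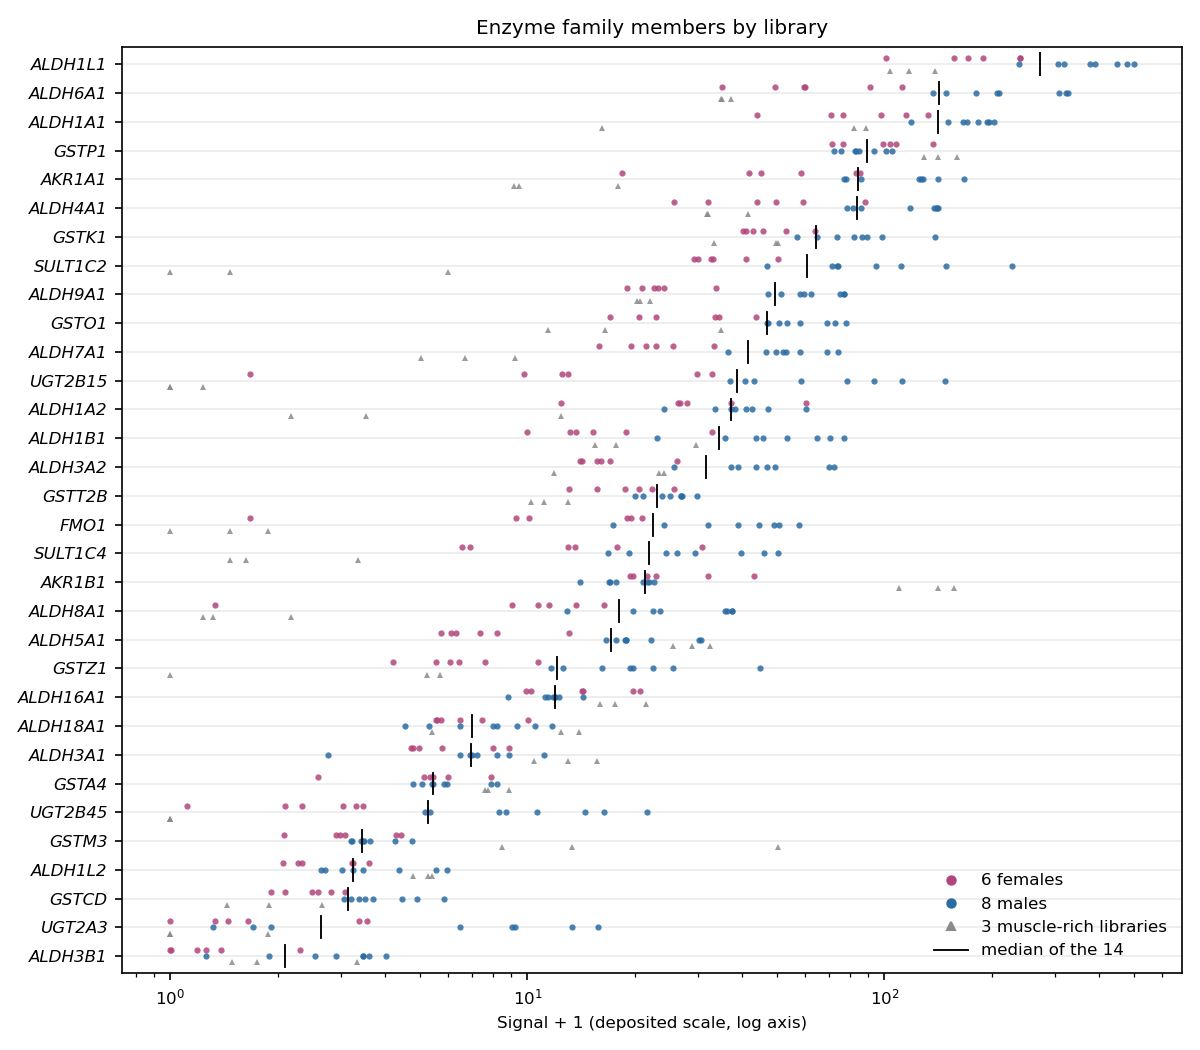
Signal of the 32 members in each library, plotted as signal + 1 on a log axis and ordered by the median of the 14 libraries (black line). Pink points are the 6 females, blue points the 8 males and grey triangles the 3 muscle-rich libraries. Most blue points lie to the right of the pink ones, GSTP1 is narrow, and the triangles of AKR1B1 and GSTM3 lie to the right of all other points of those genes.

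The members also differed in their spread among libraries. UGT2B15 ran from 0.675 to 146 over the 14 libraries, ALDH8A1 from 0.337 to 36.5 and FMO1 from 0.675 to 56.5, in each case with female 3 lowest. ALDH16A1 moved 2.51-fold, GSTT2B 2.39-fold and AKR1B1 3.22-fold. Of the 32 members, 25 had a signal of at least 1 in all 14 libraries. All 32 passed the filter on low values, a signal of 1 or more in 6 or more libraries. UGT2A3 and ALDH3B1 passed mainly through the males, so their higher signal in males was partly built into the filter.

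Compared between the sexes, the members were mostly higher in males. Of 32 tested, 22 were called higher in males by limma at an adjusted p under 0.05, where 35.1% of all 9844 genes tested were called in that direction. In females 0 were called higher, against 2.22% of all genes, and 1 member had an unadjusted p under 0.05 in that direction. The female minus male difference of log2(signal + 1) had a median of -1.14 over the members and -0.34 over all genes, and 25 of the 32 lay below the all-gene median. The 22 comprised 11 of 16 ALDH, 4 of 8 GST, 3 of 3 UGT2, 2 of 2 SULT, 1 of 2 AKR1 and 1 of 1 FMO members. These counts include UGT2A3 and ALDH3B1, which passed the filter mainly through the males. They also include GSTZ1 and AKR1A1, each measured without a transcript found in the female table alone.

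UGT2B15 and UGT2B45 had the largest differences of the members. UGT2B15, which conjugates androgens, had signals of 0.675, 11.8 and 32.0 (lowest, median, highest) in the females and 35.8, 67.5 and 146 in the males. Every male lay above every female. The difference was -2.53 on the log2 scale (SE 0.54, limma adjusted p = 0.0019). UGT2B45 likewise did not overlap, with 0.112, 1.69 and 2.47 in females and 4.16, 8.67 and 20.7 in males, a difference of -2.08 (SE 0.34, limma adjusted p = 0.00032). UGT2A3, which glucuronidates bile acids, overlapped: females 0, 0.547 and 2.55, males 0.319, 6.76 and 14.7, with -1.49 (SE 0.57, limma adjusted p = 0.049). That call was lost on leaving out any 1 of 9 of the 14 libraries (females 3, 4, 7 and 8 and males 1, 4, 7, 8 and 9). UGT2B genes are near-identical copies, so reads may be split among them and with the UGT2B relatives below.

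FMO1 had 0.675, 13.6 and 19.9 in females against 16.4, 40.8 and 56.5 in males. The lowest male lay within the female range. Its difference was -1.83 (SE 0.47, limma adjusted p = 0.0066). The sulfotransferase SULT1C2 had 28.3, 31.8 and 49.2 in females and 46.0, 83.4 and 227 in males, the highest being male 7, and overlapped by 1 male (-1.42, SE 0.28, limma adjusted p = 0.0011). SULT1C4, which lies near it in the genome, showed -1.20 (SE 0.34, limma adjusted p = 0.011) with females at 5.57, 12.3 and 29.9 and males at 15.8, 26.8 and 49.5.

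The 5 calls with the smallest p were all aldehyde dehydrogenases. ALDH9A1, which makes the carnitine precursor from an aldehyde, had 18.1, 21.9 and 32.8 in females and 46.3, 59.8 and 76.3 in males, with no overlap and the smallest p of the set (-1.41, SE 0.15, limma adjusted p = 5.54e-05). ALDH6A1 had 34.1, 58.7 and 111 in females and 135, 207 and 327 in males, again without overlap (-1.79, SE 0.27, limma adjusted p = 0.00019). Its means were 66.9 ± 28.5 (SD, n = 6) and 229 ± 78.4 (SD, n = 8). ALDH7A1, of lysine breakdown, and ALDH5A1, which removes succinate semialdehyde from GABA, did not overlap either, with differences of -1.25 (SE 0.18) and -1.50 (SE 0.20). ALDH3A2, the fatty aldehyde dehydrogenase, had a difference of -1.44 (SE 0.22), and only female 7 (25.2) exceeded any male (lowest male 24.7).

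ALDH1L1, the member of highest signal, had 100.4, 179 and 239 in females and 237, 381 and 499 in males, overlapping at the margin (-1.08, SE 0.21, limma adjusted p = 0.0011). ALDH8A1, of the kynurenine pathway of tryptophan breakdown, gave -1.67 (SE 0.45), ALDH4A1 -1.29 (SE 0.25) and ALDH1A1 -1.02 (SE 0.21), all called. ALDH1B1 and ALDH3B1 were the other 2 of the 11, at -1.60 (SE 0.28) and -1.07 (SE 0.27). The 5 not called were ALDH1A2, ALDH1L2, ALDH18A1, ALDH3A1 and ALDH16A1, between -0.46 and 0.30.

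The glutathione transferases divided evenly, 4 called and 4 not. GSTZ1, which also isomerises maleylacetoacetate in tyrosine breakdown, GSTO1, GSTK1 and GSTCD were called higher in males, at -1.61, -1.10, -0.83 and -0.67. The value for GSTZ1 leaves out a transcript found in the female table alone, and with it the female median would be 12.2 in place of 5.25, above the lowest male (10.7). GSTCD shares the name through a C-terminal domain and is not a classical transferase. GSTP1 had 70.5, 101 and 136 in females and 71.4, 83.0 and 104 in males. The sexes overlapped almost fully, and its difference of 0.16 (SE 0.15, limma adjusted p = 0.42) was within the spread between libraries. GSTT2B (-0.40), GSTA4 (-0.21) and GSTM3 (-0.19) were not called.

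The aldo-keto pair split. AKR1A1 had 17.4, 50.9 and 84.5 in females and 75.8, 125 and 166 in males (-1.18, SE 0.30, limma adjusted p = 0.0060). AKR1B1, the aldose reductase that makes sorbitol from glucose, had 18.4, 21.3 and 42.1 in females and 13.1, 18.4 and 21.7 in males. Its difference was 0.42 (SE 0.18, limma adjusted p = 0.083), the most female-sided of the members and not called.

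Without overlap between 6 females and 8 males, 8 members were higher in every male (ALDH5A1, ALDH6A1, ALDH7A1, ALDH9A1, GSTO1, GSTZ1, UGT2B15 and UGT2B45), where 11.5% of all genes were. For GSTZ1 this holds for the shared transcripts. The reverse held for 0 members and 0.305% of genes. Scaling the libraries to equal medians moved the all-gene median from -0.34 to 0.03. The calls over all genes went from 3451 higher in males and 219 higher in females to 1414 and 1393. Under it 16 members were called higher in males (14.4% of genes) and 3, AKR1B1, ALDH16A1 and GSTP1, higher in females (14.2% of genes). AKR1A1, ALDH8A1, GSTCD, GSTK1, SULT1C4 and UGT2A3 lost their call there and stayed lower in females. With age as a term, 0 members were called, and 1 gene was called in all. An unadjusted limma p under 0.05 was found for 4 members and 458 of 9844 genes higher in males. In the other direction it was found for 0 members and 64 genes. Ages did not overlap between the sexes, so this fit could not separate sex from age.

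**Figure D2:**
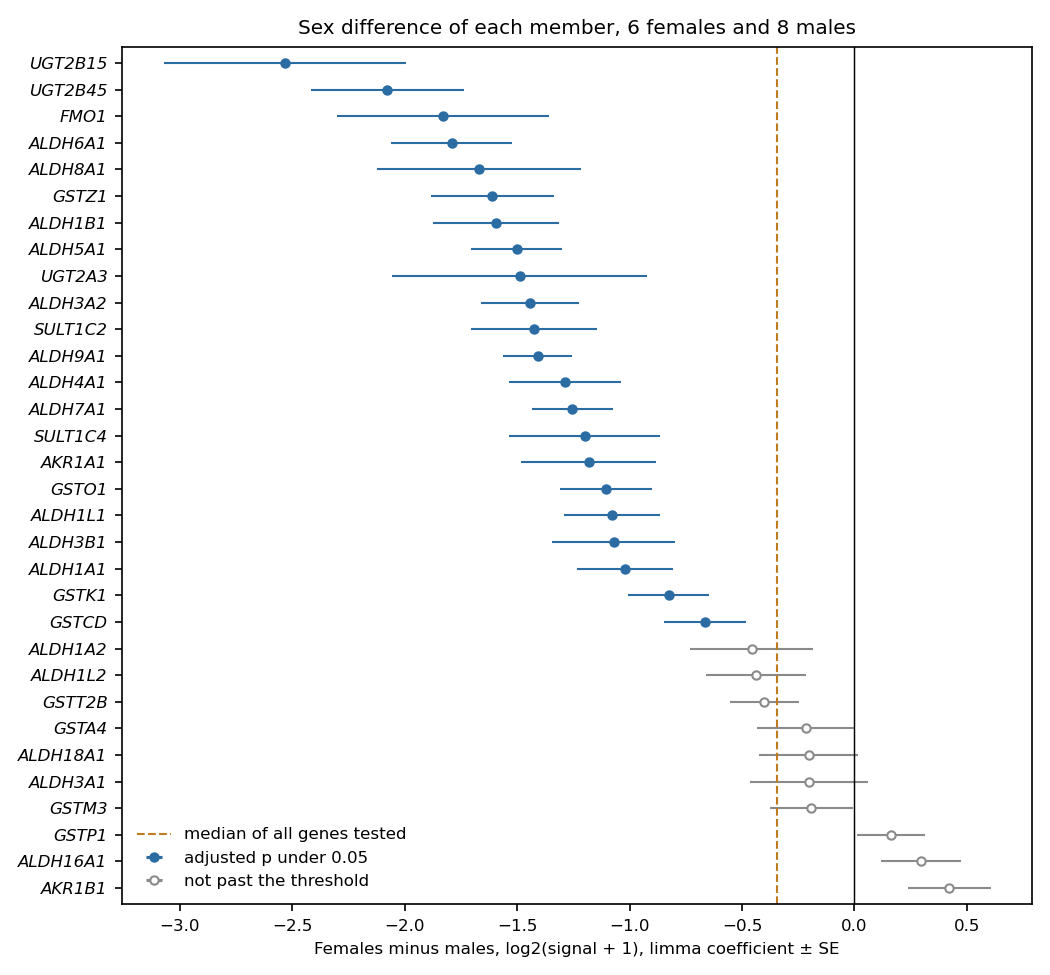
Female minus male difference of log2(signal + 1) for each member, with its standard error, from limma over 6 females and 8 males. Filled points passed an adjusted p under 0.05, open points did not, and the dashed line is the median of all genes tested (-0.34). The 22 filled points lie between -2.53 and -0.67, and AKR1B1, ALDH16A1 and GSTP1 are the only points above 0.

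Between males of series A and B, limma called 0 members and 2 genes in all (0.0202% higher in B, 0 higher in A). The difference, B minus A, had a median of 0.31 over members and 0.17 over all genes. That of UGT2B15 was 1.09 (SE 0.31) and not called. Against the females, series A alone gave 16 members higher in males of 30 tested (19.2% of genes), and series B alone gave 21 of 32 (29.2%).

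The second question was which members follow the proximal tubule gene LRP2 and which the thick limb gene UMOD. Over the 14 libraries, 22 members had a Pearson r of at least 0.5 with LRP2, 4 with UMOD, and 6 with neither. Nearest to that limit, GSTCD lay inside at 0.62 with LRP2 and ALDH1A1 outside at 0.469, while ALDH18A1 lay inside at 0.512 with UMOD. The split also depended on female 3 and female 4. Without them, r with LRP2 was 0.752 for ALDH1A1, 0.753 for GSTT2B and 0.666 for GSTM3, all on neither side. For ALDH1A2, on the UMOD side, it went from -0.069 to 0.577. Every member on the LRP2 side stayed above 0.5. On the UMOD side, without female 6 and female 3, ALDH1A2, ALDH16A1 and ALDH18A1 fell below 0.5 and GSTA4 stayed above it. LRP2 and UMOD themselves had r = -0.39 over the 14 libraries. All points share the same libraries and scaling, and 64 correlations with members were computed.

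**Figure D3:**
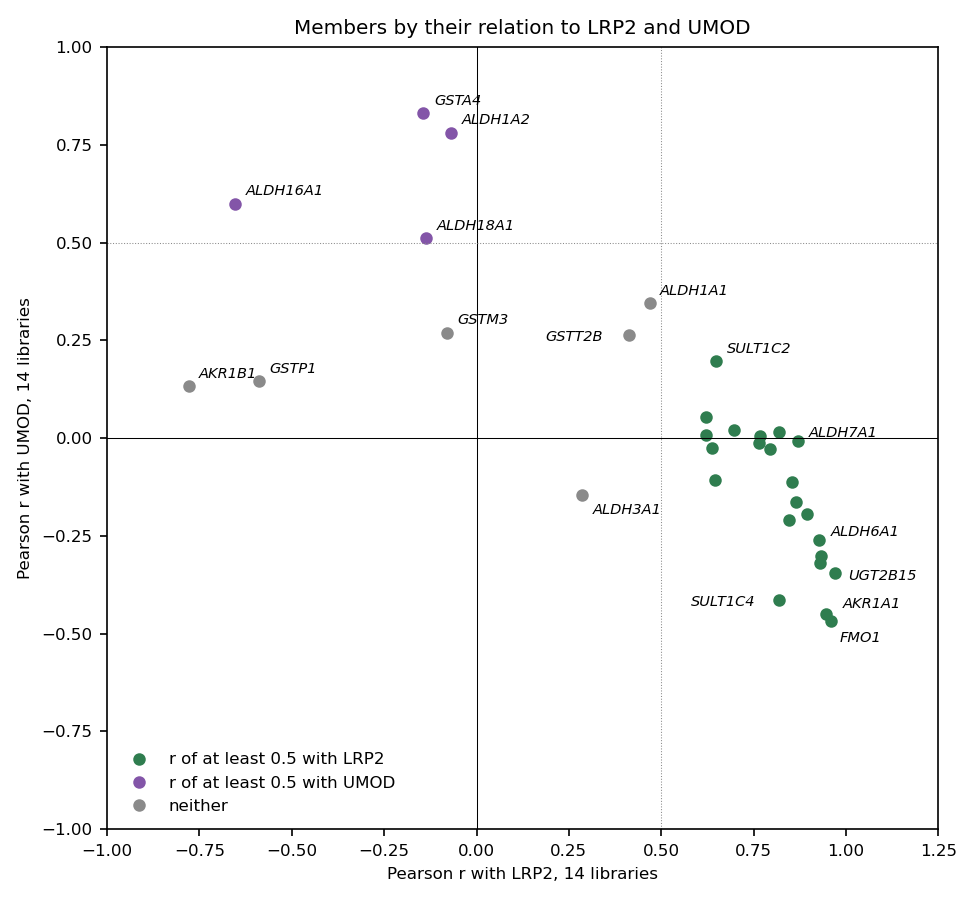
Pearson r of each member's log2(signal + 1) with that of LRP2 (horizontal axis) and of UMOD (vertical axis) over 14 libraries. Green points have r of at least 0.5 with LRP2, purple points with UMOD, grey points with neither, and dotted lines mark 0.5. The 22 green points sit at the right with r near or below 0 for UMOD, and GSTA4, ALDH1A2, ALDH16A1 and ALDH18A1 sit at the top.

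Fitted across all genes, 20 members were called rising with LRP2 by limma, where 18.0% of genes were, and 1 member, AKR1B1, was called falling, where 2.84% were. The slope, in log2 units of the member per log2 unit of LRP2, had a median of 0.44 over members and 0.08 over all genes. The 20 were all among the 22 called higher in males. Since LRP2 did not overlap between the sexes, both contrasts rest largely on the same order of libraries. Slopes were steepest for UGT2B15 (1.22, SE 0.08, limma adjusted p = 8.1e-09), FMO1 (0.95, SE 0.08) and ALDH8A1 (0.86, SE 0.09). ALDH6A1 followed LRP2 at 0.72 (SE 0.08), AKR1A1 at 0.59 (SE 0.06), ALDH4A1 at 0.54 (SE 0.07) and ALDH1L1 at 0.46 (SE 0.06).

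Within a sex the relation was tested again, on fewer libraries. UGT2B15 had r = 0.971 and rho = 0.943 over 14 libraries (permutation p adjusted over 64, 7.11e-05 and 0.00016, from the smallest p that 100000 resamples can give, 1e-05). Without the 2 libraries farthest from the LRP2 median, female 3 and female 4, its r was 0.954. It was 0.973 in the 6 females and 0.831 in the 8 males (exact permutation p = 0.015 and 0.010, adjusted over 64 within each sex 0.18 and 0.071). ALDH6A1 had r = 0.926 and rho = 0.987 over the 14, with the same adjusted permutation p values as UGT2B15. Without those 2 libraries its r was 0.979, and it was 0.924 in females and 0.933 in males (exact permutation p = 0.0028 and 0.00040, adjusted 0.089 and 0.013). FMO1 had an r of 0.961 over the 14, 0.975 in females and 0.686 in males (exact permutation p = 0.0014 and 0.061, adjusted 0.089 and 0.21). ALDH7A1 had 0.870 over the 14, 0.672 in females and 0.975 in males (exact permutation p = 0.16 and 0.00037, adjusted 0.40 and 0.013). By the adjusted p, ALDH6A1 and ALDH7A1 in males passed among these 4.

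With sex as a term, 7 of 32 members tested were called rising with LRP2 (4.95% of genes), all of them among the 20. They were UGT2B15, FMO1, AKR1A1, ALDH8A1, ALDH6A1, ALDH1L1 and ALDH4A1. In the females alone 6 of 30 members tested were called (4.01% of genes), and in the males alone 7 of 32 (2.92% of genes). The female and male lists shared UGT2B15 and ALDH6A1. The difference in slope between the sexes was called for 0 members and 0 genes by limma. The slope difference, females minus males, had a median of -0.55 over members and -0.40 over all genes, so genes at large leaned the same way. That of SULT1C2 was -1.64 (SE 0.35, limma adjusted p = 0.085). Within females the slopes of SULT1C2 and GSTZ1 were -0.09 and -0.05. Female 3 weighed on these counts: without it, 23 members rose with LRP2 (35.4% of genes, up from 18.0%) and 0 fell (1.99%). No member was called falling with sex as a term (2.12% of genes), in females alone (1.77%) or in males alone (0.0513%), and after median scaling 16 rose (10.0%) and 3 fell (8.56%).

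Turned around, with LRP2 as a term in the sex comparison, 9 members were called higher in males, where 19.0% of genes were, and 8 of them were also among the 22. They were ALDH1A1, ALDH1A2, ALDH3A2, ALDH5A1, ALDH6A1, ALDH7A1, ALDH9A1, GSTZ1 and SULT1C2. The sex difference of ALDH9A1 was -1.19 in that fit against -1.41 without the term. That of UGT2B15 was -0.22, and those of FMO1, ALDH8A1 and AKR1A1 were 0.16, 0.12 and 0.0022, none of the 4 called. A missed threshold does not show that the sexes were equal there.

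Thick limb relations were few. ALDH1A2, which makes retinoic acid, was the 1 member called rising with UMOD, where 0.975% of genes were. Its signals were 11.5, 26.4 and 59.3 in females and 23.1, 38.6 and 59.5 in males, highest in female 3 and male 1, the libraries of highest UMOD, and lowest in female 6, the library of lowest UMOD. Its slope was 0.63 (SE 0.14, limma adjusted p = 0.048), a call that was lost on leaving out any 1 of 12 of the 14 libraries. It had r = 0.781 and rho = 0.622 with UMOD (permutation p adjusted over 64, 0.0042 and 0.048), 0.479 without female 6 and female 3, 0.925 in females and 0.651 in males (exact permutation p = 0.017 and 0.078, adjusted 0.18 and 0.25).

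GSTA4, which conjugates the lipid peroxidation product 4-hydroxynonenal, had the highest r with UMOD. Its signals were low, 1.59, 4.40 and 6.92 in females and 3.77, 4.63 and 7.24 in males. It had r = 0.831 and rho = 0.692 (permutation p adjusted over 64, 0.00094 and 0.019), 0.604 without female 6 and female 3, 0.865 in females and 0.840 in males (exact permutation p = 0.026 and 0.0067, adjusted 0.19 and 0.061), while its slope of 0.46 (SE 0.11) missed the threshold over all genes (limma adjusted p = 0.061). ALDH16A1 (r = 0.60) and ALDH18A1, the first enzyme of proline synthesis from glutamate (r = 0.512), were not called. Without female 6 and female 3 their r was 0.413 and 0.369. ALDH16A1 also had r = -0.653 with LRP2, and 0.025 without female 3 and female 4. With sex as a term, ALDH1A2 and GSTA4 were called rising (4.49% of genes) and FMO1 falling (1.14%). After median scaling the same 2 rose (2.09%) and 4 members fell (2.64%), and in females alone 0 members rose (0.351%) or fell (0.0425%). No member was called falling with UMOD in the 14 as deposited, where 0.0406% of genes were, and 0 had an unadjusted p under 0.05 in limma.

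Of the 6 members on neither side, AKR1B1, GSTP1 and GSTM3 had a negative r with LRP2, that of GSTM3 being -0.081. AKR1B1 fell with LRP2 by 0.23 per log2 unit (SE 0.06, limma adjusted p = 0.010). Its r was -0.78 over the 14 (rho = -0.70, permutation p adjusted over 64, 0.010 and 0.018), -0.489 without female 3 and female 4, -0.684 in females and -0.739 in males (exact permutation p = 0.12 and 0.036, adjusted 0.33 and 0.15). Female 3, with the lowest LRP2, had the highest AKR1B1 of the 14 (42.1), and without it AKR1B1 was not called. GSTP1 had r = -0.588 over the 14 and 0.052 without the same 2 libraries. It was -0.575 in females and -0.628 in males (exact permutation p = 0.25 and 0.094, adjusted 0.44 and 0.26).

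**Figure D4:**
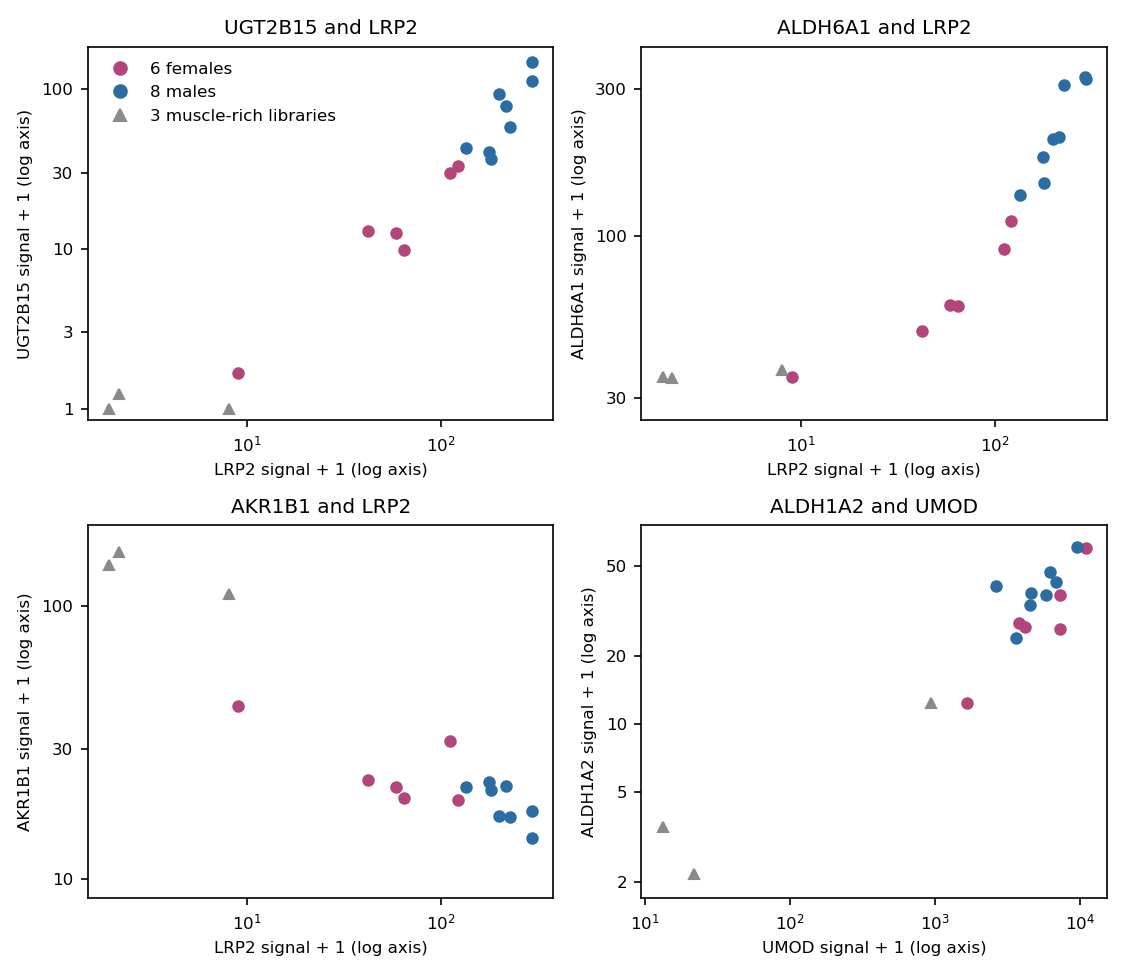
Signal + 1 of UGT2B15, ALDH6A1 and AKR1B1 against LRP2, and of ALDH1A2 against UMOD, all on log axes, with 1 point per library. Pink points are the 6 females, blue points the 8 males and grey triangles the 3 muscle-rich libraries. UGT2B15 and ALDH6A1 climb with LRP2 through both sexes, AKR1B1 is highest in the triangles (109 to 156), and ALDH1A2 is highest where UMOD is highest.

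In the 3 muscle-rich libraries the members summed to 777 to 815, close in signal to the lowest of the 14 (788). The summed signal of all genes was larger there, 540174 to 670142 against 259197 to 440508, so the members' share was smaller. Values in this paragraph are not scaled for that. Single members lay far above or below. UGT2 members summed to 0 to 0.881 there and SULT members to 0.631 to 7.34, against medians of 13.8 and 45.7 in the 6 females. In each of the 3, 8 members lay below the lowest of the 14, where 15.8% of genes did: AKR1A1, ALDH1A2, ALDH7A1, GSTT2B, SULT1C2, SULT1C4, UGT2B15 and UGT2B45. AKR1B1 (109 to 156, against at most 42.1) and GSTM3, a mu-class transferase (7.47 to 49.2, against at most 3.75), lay above the highest of the 14 in all 3, where 14.3% of genes did. GSTP1 stayed high at 128 to 159, and ALDH6A1 stayed between 33.8 and 36.1, near female 3 (34.1). With these 3 libraries included, 14 of 31 members tested were called higher in males (12.8% of genes). With LRP2, 21 rose (30.5% of genes) and 4 fell (13.9%), and with UMOD 13 rose (28.0%) and 2 fell (17.2%), the muscle-rich libraries being low in both genes.

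Neighbouring members did not always move together. ALDH3A2 (RefSeq sequence NC_018167.2, positions 18901860 to 18928777) and ALDH3A1, which acts on aromatic aldehydes (18985370 to 18995787), lie 56.6 kb apart. ALDH3A2 was called with sex and with LRP2, whereas ALDH3A1 had a sex difference of -0.20 (SE 0.26) and a slope of 0.11 (SE 0.10). ALDH3B1 and GSTP1, 149.9 kb apart on NC_018165.2, differed in the same way. SULT1C2 and SULT1C4, 139 kb apart on NC_018164.2, were called in both comparisons, as were UGT2A3 and UGT2B15, 291 kb apart on NC_018156.2. The genome build of these positions is not given in the sources used here.

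The authors' deposited tables also give a co-expression module colour to each transcript, assigned in each sex separately. In the male table, of which only a part is held here, 21 of 47 member transcripts were in the blue module (44.7%, against 17.7% of all transcripts held) and 9 in turquoise (19.1%, against 28.5%). In the authors' deposited female table, 8 of 49 member transcripts were pink (16.3%, against 3.99%), 8 cyan (16.3%, against 6.48%) and 10 blue (20.4%, against 41.7%). AKR1B1, ALDH16A1, ALDH1L2, ALDH3A1, ALDH5A1, GSTA4, GSTM3 and GSTP1 were blue in the authors' deposited female table and turquoise in the male one, and FMO1, ALDH6A1 and ALDH1L1 were pink and blue.

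Relatives listed under other names were mostly higher in males too. Of 35 tested, 23 were called higher in males and 0 in females by limma (median difference -1.32, against -0.34 over all genes). With LRP2 26 rose and 0 fell, and with UMOD 0 were called. Over all genes 35.1% were higher in males and 2.22% in females, and 18.0% rose and 2.84% fell with LRP2. With UMOD, 0.975% of all genes rose and 0.0406% fell, so counts of 0 among 35 relatives say little. Some relatives lack transcripts in the male table. LOC100999613, listed as mitochondrial aldehyde dehydrogenase, had 4 of 7 in both tables. Its female median was 10.2 on those and 146 on all 7, against a male median of 46.1 on the shared ones. LOC101024941, listed as dimethylaniline monooxygenase 1, reached at most 1.57 in females. It passed the filter on low values mainly through the males. Other relatives did too, such as UGT2B44, LOC101022486 and LOC101021773, with female medians of 0.151, 0.361 and 0.606. For such genes a higher signal in males was partly built into the filter, and the count of 23 was not corrected for that. The largest median signal among members and relatives, 724, belonged to LOC101014452, listed as cytochrome P450 4A11, a fatty acid hydroxylase: 60.3, 521 and 1172 in females and 418, 886 and 1161 in males. It overlapped between the sexes (-0.85, SE 0.52, limma adjusted p = 0.22) but rose with LRP2 (0.71, SE 0.12). UGT1A9, which glucuronidates phenolic drugs, had 0.434, 35.7 and 106 in females and 120, 205 and 396 in males. It did not overlap between the sexes, with -2.99 (SE 0.70, limma adjusted p = 0.0036), and its slope on LRP2 of 1.52 (SE 0.07) was steeper than that of any member. UGT1A genes share exons, so reads may be split among them. UGT2B40 (-2.82, SE 0.47) and LOC101022440, listed as like UGT2B18 (-3.11, SE 0.40), moved as the UGT2B members did. LOC101023797, listed as cytochrome P450 20A1, was level, with 20.4, 23.7 and 27.0 in females and 18.6, 25.2 and 31.0 in males.

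Other genes of drug and steroid metabolism were taken from a list of 90, of which 58 were in both tables and all 58 were tested. By limma 41 were higher in males and 0 in females (median difference -0.97), 38 rose and 1 fell with LRP2 (median slope 0.38), and 0 were called with UMOD. Beside these counts, 35.1% of all genes were higher in males, 2.22% higher in females, 18.0% rose and 2.84% fell with LRP2. With UMOD, 0.975% of all genes rose and 0.0406% fell. Those higher in males included DPEP1, which cleaves cysteinylglycine, at -2.86 (SE 0.43) and GCLC, the rate-limiting enzyme of glutathione synthesis, at -1.62 (SE 0.18). UGDH, which makes the UDP-glucuronic acid that UGT enzymes use, was at -1.41 (SE 0.23), and NQO1, a quinone reductase, at -1.24 (SE 0.23). HNF4A, a transcription factor of the proximal tubule, had -1.82 with sex (SE 0.47) and a slope of 0.96 on LRP2 (SE 0.06), and GLYAT, which joins glycine to acids, a slope of 1.20 (SE 0.07). HSD17B2, which inactivates sex steroids, was the 1 gene falling with LRP2 (-0.58, SE 0.17, limma adjusted p = 0.023). HSD11B2, which inactivates cortisol in distal segments, had -0.07 with sex (SE 0.30) and was not called.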

How the data were processed

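The authors deposited 1 table per sex, which holds signal for each transcript and library above an offset of 1. Its headers also name a co-expression module colour, deposited as text. The submitters' processing notes name Partek. The aligner, the scaling and the build of the genome: not given in the sources used here. Of the low values, 44.3% to 58.0% per library were whole steps within 0.1 of a step, too few to recover reads for a count test. The male table is held here in part (17119 transcripts, all among the 26644 of the female table), and 47 of 49 member transcripts are in both. AKR1A1 and GSTZ1 each lack 1.

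The offset was subtracted, transcripts in both tables were summed per gene, and limma 3.58.1 in R 4.3.3 was fitted to log2(signal + 1) with a mean-variance trend over 9844 genes (6 or more of the 14 libraries at a signal of 1 or more), with Benjamini-Hochberg adjustment and a threshold of 0.05. Fold changes on this scale understate low genes. The fit was run on simulated data with independent noise and known changes in a small share of genes. That simulation lacked the wide shift between the sexes seen here, so it does not bear on that shift. Correlations used numpy 2.4.6 and scipy 1.17.1 in Python 3.11.15, with two-sided permutation p from 100000 resamples, exact within a sex. Named were the 3 members of highest median in each family, a list of well-known members, and the 5 smallest-p calls per comparison and direction. The other members are named to account for all. The members and all gene lists were chosen with earlier results of these data known. The relatives, the slope difference and LRP2 as a term in the sex comparison were chosen after the tables were seen. Replicates are separate animals. The alternatives tried were other libraries, scalings, pseudocounts, filters, covariates and each library left out.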

Additional observations from a re-analysis of the deposited data

Results flagged for a closer look

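Within 64 sets of values (32 members in the 6 females and in the 8 males), 4 had a lowest or highest library set apart from its group by Dixon's test, and chance alone sets apart about 1 in 20. FMO1 in female 3 was 0.675, with the next female at 8.31. ALDH8A1 in female 3 was 0.337, with the next female at 8.04. ALDH3A2 in female 7 was 25.2, above the next female at 16.1. ALDH3A1 in male 3 was 1.76, below the next male at 5.46.

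In the 3 muscle-rich libraries, which the comparisons leave out, AKR1B1 was at least 109, against at most 42.1 in the other 14. GSTM3 there was at least 7.47, against at most 3.75. These values are not scaled for the larger summed signal of those libraries.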

How the results depend on the processing

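The count of members called higher in males (22) was 14 with all 17 libraries, 9 with LRP2 as a term (chosen after seeing the data) and 0 with age as a term, and 21 to 23 on leaving out each library. Those higher in females were 3 under median, upper quartile and non-mitochondrial scaling (14.2%, 13.2% and 15.6% of all genes), and 0 to 0 with each library left out. Rising with LRP2 (20) became 7 with sex as a term, 6 in females alone and 7 in males alone, and was 17 to 23 on leaving out each library. Falling with LRP2 (1) became 4 with 17 libraries, 3 with median scaling, 2 with pseudocount 10 or filter minimum 10 (4.09% and 3.53% of all genes), and 0 with sex as a term or in either sex alone (0 to 2 with each library left out). Rising with UMOD (1) became 13 with 17 libraries, 2 with median scaling or sex as a term, 3 with LRP2 and UMOD in 1 model (9.34% of all genes, near the members' share), and 0 with pseudocount 10 (0.63%), without a trend (0.904%) or in either sex alone (0 to 2 with each library left out). Falling with UMOD (0) became 2 with 17 libraries, 4 with median scaling and 1 with sex as a term. With each library left out, 29.9% to 39.1% of all genes were higher in males and 1.60% to 2.38% higher in females. Those rising with LRP2 were then 13.2% to 35.4% and those falling 1.51% to 3.83%. In males alone 0 genes were called with UMOD. Shares for the UMOD counts with a library left out are not given here. Those for the other counts stand with the results. Among 32 values followed for 22 named members, signs turned for these: with age as a term UGT2A3 (0.89) and GSTP1 (-0.038); with LRP2 as a term ALDH8A1 (0.12), AKR1A1 (0.0022), FMO1 (0.16), AKR1B1 (-0.087) and GSTP1 (-0.16); ALDH5A1 on LRP2 with 17 libraries (-0.025); SULT1C2 (-0.088) and GSTZ1 (-0.048) on LRP2 in females alone. The cause was not tested. Of the other values in that set, 719 kept direction and call, 101 lost the call and 6 gained one. Members outside it also turned, such as ALDH3A1 with LRP2 as a term (0.028). No paired analysis was possible because each library came from a separate animal and the labels pair no female with a male. Read totals are unknown, so differences among members under about 1 unit of signal, such as UGT2A3 and ALDH3B1 in females, were not resolvable in female 6, where 1 unit is 3.15 steps.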
